A study of Mus musculus with 19 samples.

Results

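The 10 genes described are members of the Notch pathway and were followed across sorted mouse alveolar type II (AT2) cells and whole lung: the transcription factor genes Hes1, Hes2, Hes6 and Hey1, the receptor genes Notch1, Notch2 and Notch3, and the ligand genes Jag1, Jag2 and Dll1. They are 10 of the 36528 Entrez gene IDs in the count tables, and each ID was found in every library. The genes were chosen by name, with the fall of Hes2 in Etv5KO AT2 cells already known. Their values in that contrast, and in its difference from the lung contrast, are therefore given as a description without p-values. The same holds for Hes2 in lung, since the genes were chosen with earlier results of these data known.

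RNA was sequenced from 19 libraries in 4 groups: 5 of Etv5KO AT2 cells, 4 of control AT2 cells, 5 of Etv5KO lung and 5 of control lung. Etv5KO mice were SpcCreERT2;RosatdTomato;Etv5ko/loxp, with a knockout allele of the ETS factor gene Etv5 and a loxP-flanked allele. Control mice were SpcCreERT2;RosatdTomato. All mice received tamoxifen at 100 mg/kg for 5 days followed by a wait of 5 days, so tamoxifen, the Cre driver and the reporter were common to all 4 groups. The Cre is made where the surfactant protein C promoter is active, so the loxP-flanked allele is aimed at in those cells alone, while the knockout allele, as the genotype is written, is carried by every cell of an Etv5KO mouse and by none of a control mouse. AT2 cells were sorted as EpCAM+, tdTomato+, CD45- and CD31-. The design text names 5 mice per genotype, and the fifth control AT2 library was not analysed here. Age and sex are not given in the labels used here. Libraries are numbered within a group, and the numbers pair nothing, also not the AT2 and lung libraries of a mouse.

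Notch receptors are cut when a Jagged or Delta-like ligand on a neighbouring cell binds them, and the freed intracellular part joins the DNA-binding protein RBPJ in the nucleus. HES and HEY genes, above all Hes1 and Hey1, are the classic targets of that complex, and their proteins are basic helix-loop-helix repressors. Hes2 belongs to the same family by sequence and is studied far less. In the developing lung, Notch signalling directs airway cells towards secretory rather than ciliated fates, and in blood vessels it acts between endothelial and mural cells.

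Total counts per library were 17426415 to 26722625 in Etv5KO AT2 cells and 20279607 to 28671262 in control AT2 cells, and 20332410 to 22478603 in Etv5KO lung and 14971793 to 26989453 in control lung. Values are CPM, read counts relative to library size, scaled over all 19 libraries by TMM, unless a value per gene length is named. Etv5 itself stood at 714 ± 58.4 CPM in Etv5KO AT2 cells and 667 ± 36.1 CPM in control AT2 cells (SD, n = 5 and 4), and at 113 ± 10.8 CPM in Etv5KO lung and 104 ± 7.20 CPM in control lung (SD, n = 5 each). In neither tissue, then, were Etv5 counts lower where the label is Etv5KO. Which part of the gene the alleles remove is not given in the sources used here, and the counts are of whole gene models, so the genotype labels are used as given and Etv5KO means a library with that label. In the check of the sort, all 8 AT2 markers were higher and all 8 endothelial and 8 mesenchymal and mural markers lower in control AT2 cells, set against control lung. Of all genes tested there, 35.6% were higher and 38.9% lower. All 7 leukocyte markers and 7 of 8 airway markers were lower as well. The 6 AT1 markers split, with Ager and Aqp5 higher and 4 lower, and 0 of 5 dividing-cell markers passed. The labels do not tie a library to a mouse, so p-values measure the spread between these libraries.

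Hes2 (Entrez 15206) was nearly lost from the AT2 libraries labelled Etv5KO, in which Etv5 counts were not lower. Its 5 Etv5KO AT2 libraries held 1.71, 0.528, 0.634, 0.864 and 0.826 CPM, from 26, 10, 15, 15 and 16 counts, against 59.6, 17.2, 67.9 and 41.9 CPM in the 4 control AT2 libraries, from 1099, 353, 1569 and 706 counts. The groups did not overlap, and the lowest control library stood well above the highest Etv5KO library. The means were 0.912 ± 0.465 CPM in Etv5KO AT2 cells and 46.7 ± 22.5 CPM in control AT2 cells, a log2 fold change of −5.71 (SE 0.43, 95% interval −6.66 to −4.77). On the linear scale that is 52.5-fold lower, with an interval of 27.3 to 101. Some transcript was still counted: the 82 counts of the 5 Etv5KO AT2 libraries together came to 0.867 CPM (exact Poisson 95% interval 0.690 to 1.08, counting error only), against 47.2 CPM (45.7 to 48.8) from the 3727 counts of the control AT2 libraries. In bulk samples, fewer cells with the transcript and less of it per cell cannot be told apart.

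In whole lung, where Hes2 is a low transcript, it fell as well in the libraries labelled Etv5KO. Etv5KO lungs held 0.199, 0.425, 0.192, 0.375 and 0.254 CPM, from 5, 10, 5, 9 and 6 counts, against 2.59, 10.4, 5.80, 8.60 and 7.19 CPM in control lungs, from 61, 177, 173, 239 and 136 counts. Every Etv5KO lung was below every control lung. The means were 0.289 ± 0.106 CPM in Etv5KO lung and 6.91 ± 2.95 CPM in control lung (SD, n = 5 each), which is 23.7-fold lower (log2 −4.57, SE 0.40, 95% interval −5.45 to −3.68). Earlier results of these data were known when Hes2 was chosen, so no p is given for it here either. The threshold is an adjusted p of 0.05 in edgeR's quasi-likelihood test. Hes2 was the 1 gene of the 10 past it in lung, where 0.415% of 17098 genes tested were past it and 0.211% were past it and lower. It was also the 1 gene of the 10 without overlap between the lung groups, as were 1.52% of all genes tested. Since Hes2 was chosen with results of these data known, nothing is read from either count. It passed the filter on low counts through the control lungs, as no Etv5KO lung held more than 10 counts.

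**Figure D1:**
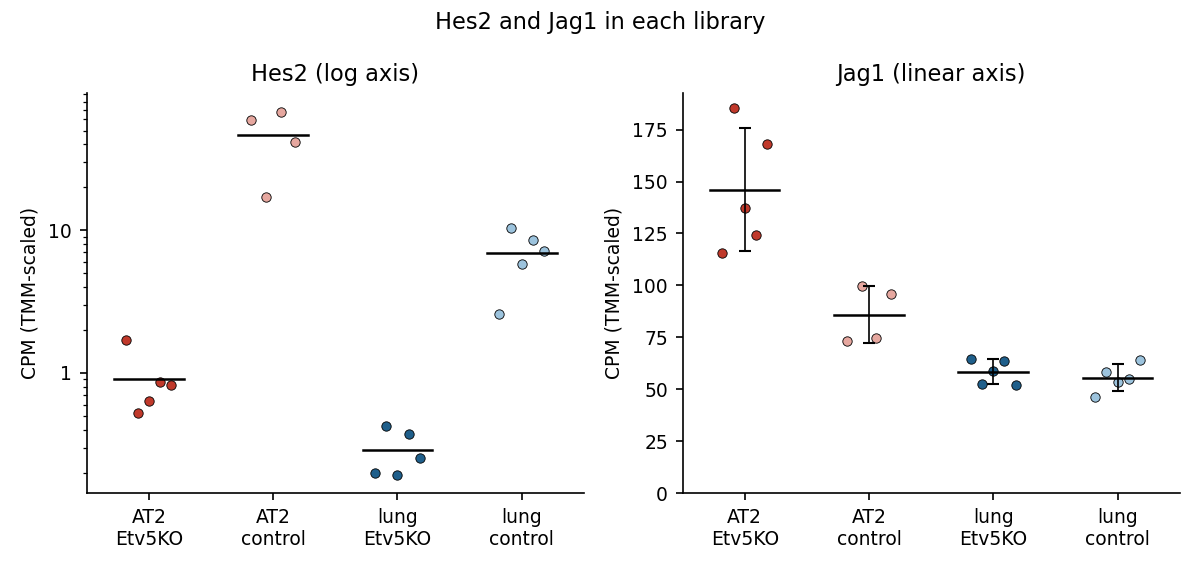
Hes2 (left, log axis) and Jag1 (right, linear axis) in CPM, one point per library, in Etv5KO and control AT2 cells and Etv5KO and control lung; lines are group means and the bars for Jag1 are SD. Hes2 does not overlap between Etv5KO and control libraries in either tissue, and Jag1 does not overlap between them in AT2 cells, while lung libraries of both genotypes lie between 46.5 and 64.6 CPM.

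The summed CPM of the 8 AT2 markers, whose group medians were also lower in Etv5KO, ran from 132279 to 174934 in Etv5KO AT2 cells and from 148215 to 238294 in control AT2 cells, and from 18889 to 26139 in Etv5KO lung and from 22328 to 28874 in control lung. Of the 8, 2 (Sftpa1 and Napsa) were lower in Etv5KO AT2 cells, where 4.84% of all genes tested were lower, and 1 (Sftpa1) in Etv5KO lung, where 0.211% were lower. The sums of both tissues overlapped between genotypes. Their part in the fall of Hes2 was not tested.

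Hes2 was also the least even of the 10 genes within a group. Its coefficient of variation was 51.0% in Etv5KO AT2 cells and 48.1% in control AT2 cells, and 36.5% in Etv5KO lung and 42.7% in control lung, the highest of the 10 in each of the 4 groups. The next highest were Notch3 at 28.5%, Dll1 at 31.0%, Hey1 at 32.4% and Dll1 at 26.0% in the same 4 groups. In the Etv5KO groups this spread rests on 5 to 26 counts a library. The control AT2 library with the least Hes2, at 17.2 CPM, also had the lowest summed AT2 markers of the control AT2 libraries (148215 CPM, the others 206357 to 238294) and the highest summed markers of dividing cells (260.1 CPM). That library stood at an end in the other lists too. It was lowest in AT1 (2471 CPM), airway (408 CPM), endothelial (86.4 CPM) and neuroendocrine markers (2.38 CPM). It was highest in mesenchymal and mural (68.6 CPM) and leukocyte markers (44.9 CPM). The control lung with the least Hes2, at 2.59 CPM, likewise had the lowest summed AT2 markers of the control lungs (22328 CPM) and the highest dividing-cell sum (195 CPM). That lung stood further from the other control lungs in its airway markers (13970 CPM, the others 23691 to 27039) and its mesenchymal and mural markers (4169 CPM, the others 2099 to 2638), while its AT2 sum was close to the next (23537 CPM). Their part in the Hes2 values was not tested.

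Hes2 RNA was more abundant in AT2 cells than in lung. In controls it was 6.81-fold higher in AT2 cells than in lung (log2 2.77, SE 0.40, 95% interval 1.88 to 3.66). The 8 AT2 markers were 6.26 to 9.65 times as high in control AT2 cells as in control lung by mean CPM, and Hes2 was 6.75 times as high. In Etv5KO mice the same ratios were 6.24 to 8.37 for the AT2 markers and 3.15 for Hes2. The log2 fold change of Hes2 in AT2 cells minus that in lung was −1.17 (95% interval −2.78 to 0.44), an interval that includes 0. The Etv5KO contrast in AT2 cells and the comparison of control AT2 cells with control lung share the 4 control AT2 libraries, so no p is given for Hes2 in the second.

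Among the ligands, Jag1 (Entrez 16449), a Jagged ligand of the Notch receptors, was higher in Etv5KO AT2 cells. Its Etv5KO AT2 libraries held 116, 185, 137, 124 and 168 CPM, against 73.3, 99.7, 74.8 and 95.7 CPM in control AT2 libraries. All 5 Etv5KO values lay above all 4 control values. The means were 146 ± 29.7 CPM in Etv5KO AT2 cells and 85.9 ± 13.7 CPM in control AT2 cells, a log2 fold change of 0.77 (SE 0.15, 95% interval 0.44 to 1.10). In lung, Jag1 held 64.6, 52.6, 58.7, 63.8 and 51.9 CPM in Etv5KO libraries, against 46.5, 58.3, 53.6, 54.8 and 64.2 CPM in control libraries. The lung groups overlapped throughout, with a log2 fold change of 0.07 (SE 0.10, 95% interval −0.14 to 0.28) and an edgeR adjusted p of 0.978. The change in AT2 cells minus that in lung was 0.69 (95% interval 0.31 to 1.08), given as a description. It was not past the threshold over all genes in the edgeR fit, and was past it with DESeq2, with no filter on low counts, and without any 1 of 4 libraries (Etv5KO AT2 library 1 or 4, control AT2 library 2 or control lung library 1).

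Some airway and AT1 markers were higher in the same AT2 libraries. The summed CPM of 8 airway secretory and ciliated markers ran from 778 to 1138 in Etv5KO AT2 cells and from 408 to 823 in control AT2 cells, and 3 of the 8 were higher past the threshold (Cyp2f2, Muc5b and Tppp3), where 5.03% of all genes tested were. Cyp2f2, a secretory cell marker, ran from 332 to 381 CPM in Etv5KO AT2 cells and from 81.4 to 146 CPM in control AT2 cells, without overlap, while the defining secretory marker Scgb1a1 averaged 458 CPM in Etv5KO and 407 CPM in control AT2 cells and overlapped. The summed CPM of 6 AT1 markers ran from 3295 to 3833 in Etv5KO AT2 cells and from 2471 to 3316 in control AT2 cells, with 2 of the 6 higher and 1 lower past the threshold. Their part in the Jag1 values was not tested.

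The promoter of Jag1, the member that was higher in Etv5KO AT2 cells, is shown beside that of Hes6, both in RefSeq on GRCm38.p6. The Hes6 window shown is the one member window with CCGGAA (in capitals), the letters searched on both strands for ETS factors. Both windows run from 250 bases before to 50 after the start site on the minus strand, at chr2:137116471-137116770 for Jag1 and chr1:91413173-91413472 for Hes6.
Jag1: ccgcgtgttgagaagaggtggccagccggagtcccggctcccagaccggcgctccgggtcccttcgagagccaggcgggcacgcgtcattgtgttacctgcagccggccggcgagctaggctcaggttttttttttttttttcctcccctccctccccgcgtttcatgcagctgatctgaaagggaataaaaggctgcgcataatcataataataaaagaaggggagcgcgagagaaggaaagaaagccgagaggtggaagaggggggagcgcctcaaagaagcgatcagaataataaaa
Hes6: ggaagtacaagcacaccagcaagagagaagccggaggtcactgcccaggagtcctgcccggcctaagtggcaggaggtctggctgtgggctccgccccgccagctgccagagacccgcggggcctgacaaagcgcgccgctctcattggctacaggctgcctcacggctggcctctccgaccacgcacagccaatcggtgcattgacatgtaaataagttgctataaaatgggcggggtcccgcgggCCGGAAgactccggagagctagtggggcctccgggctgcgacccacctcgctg
Of the 10 genes, 7 had an entry in the promoter table, with 9 windows; Hes1, Hes2 and Hey1 had none. CCGGAA was in 1 of the 9 windows, starting 3 bases before the Hes6 start site, and in 14.9% of all 32851 windows of that length. Another Hes6 window, at chr1:91413989-91414288, did not hold it. The RBPJ core letters TGGGAA, on either strand, were in 0 of the 9 windows and in 25.6% of all windows. Only CCGGAA was searched for ETS factors, so a window without it can hold other forms of their site. Letters in a window describe the sequence and do not show a bound site.

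The other ligands did not pass in either tissue. Jag2, a second Jagged ligand, averaged 20.1 ± 2.26 CPM in Etv5KO AT2 cells and 23.0 ± 2.26 CPM in control AT2 cells, with a log2 fold change of −0.19 (95% interval −0.41 to 0.02). In lung it averaged 41.1 ± 7.06 CPM in Etv5KO and 48.5 ± 8.82 CPM in control libraries, with a log2 fold change of −0.24 (95% interval −0.54 to 0.06). Dll1, a Delta-like ligand, was scarce in AT2 cells, at 1.99 ± 0.212 CPM in Etv5KO and 2.25 ± 0.699 CPM in control libraries. In lung it averaged 40.7 ± 8.07 CPM in Etv5KO and 45.4 ± 11.8 CPM in control libraries. The Dll1 log2 fold changes were −0.17 (95% interval −0.64 to 0.31) in AT2 cells and −0.16 (−0.55 to 0.22) in lung.

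No receptor passed between genotypes in either tissue. Notch1 ran from 111 to 147 CPM in Etv5KO AT2 libraries and from 105 to 119 CPM in control AT2 libraries, which overlapped, with a log2 fold change of 0.19 (95% interval −0.00 to 0.38). In lung its point estimate had the other sign, −0.18 (95% interval −0.46 to 0.11), with means of 188 ± 33.6 CPM in Etv5KO lung and 212 ± 26.6 CPM in control lung. Notch2, the second receptor found at a high level in both tissues, averaged 169 ± 11.8 CPM in Etv5KO AT2 cells and 163 ± 18.1 CPM in control AT2 cells, and 153 ± 20.4 CPM in Etv5KO lung and 161 ± 33.5 CPM in control lung. Its log2 fold changes were 0.06 in AT2 cells and −0.08 in lung, with both intervals including 0. Notch3, a receptor of mural cells, averaged 3.13 ± 0.890 CPM in Etv5KO AT2 cells and 3.30 ± 0.610 CPM in control AT2 cells. In lung it averaged 174 ± 16.6 CPM in Etv5KO and 197 ± 19.5 CPM in control libraries, a log2 fold change of −0.19 (95% interval −0.38 to 0.00) that did not pass, with an edgeR adjusted p of 0.906.

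None of the other HES and HEY genes passed between genotypes in either tissue. Hes1, the best studied Notch target, averaged 64.3 ± 8.31 CPM in Etv5KO AT2 cells and 64.8 ± 10.6 CPM in control AT2 cells, and 59.2 ± 12.1 CPM in Etv5KO lung and 57.3 ± 10.2 CPM in control lung. Its log2 fold changes were −0.00 (95% interval −0.27 to 0.26) in AT2 cells and 0.04 (−0.28 to 0.37) in lung. Hey1, a target prominent in vessels, averaged 1.53 ± 0.334 CPM in Etv5KO AT2 cells and 1.94 ± 0.524 CPM in control AT2 cells, and 70.7 ± 22.9 CPM in Etv5KO lung and 79.8 ± 18.9 CPM in control lung. Its log2 fold changes were −0.32 (95% interval −0.83 to 0.20) in AT2 cells and −0.18 (−0.68 to 0.32) in lung. Hes6, which counteracts Hes1 in mouse neural cells, held 39.6, 33.5, 31.9, 35.9 and 33.9 CPM in Etv5KO AT2 libraries, against 40.8, 39.7, 43.6 and 39.2 CPM in control AT2 libraries. A single Etv5KO library reached into the control range, and the other 4 lay below it. Hes6 was at −0.22 on the log2 scale (SE 0.07, 95% interval −0.38 to −0.06) and did not pass the threshold over all genes, which it did pass without Etv5KO AT2 library 1. In lung Hes6 stood at 23.0 ± 2.07 CPM in Etv5KO and 23.2 ± 1.77 CPM in control libraries.

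**Figure D2:**
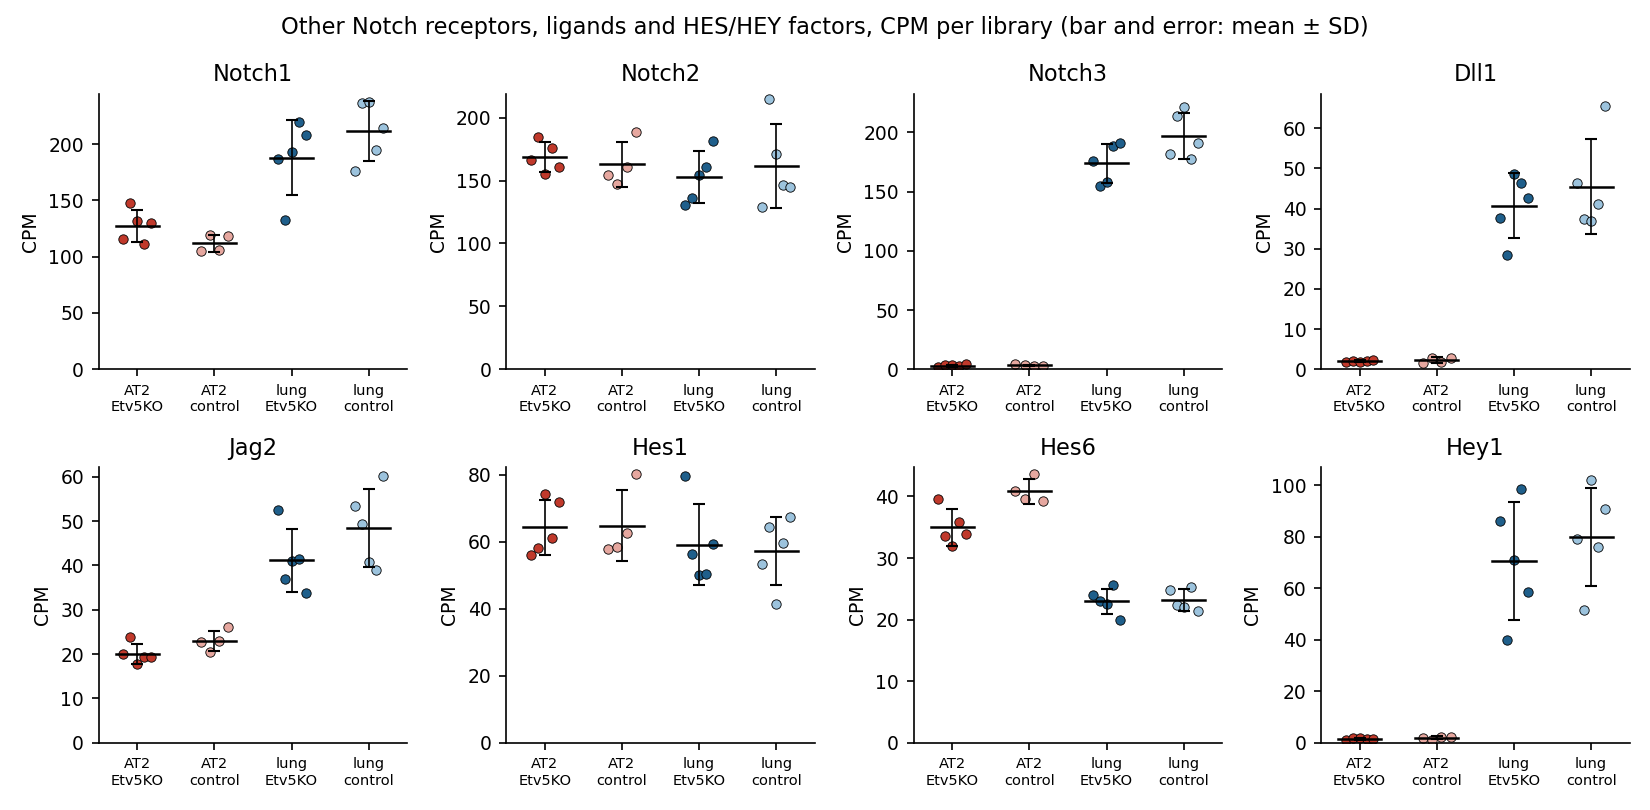
CPM per library (points) with mean and SD for the 8 genes other than Hes2 and Jag1, in Etv5KO and control AT2 cells and Etv5KO and control lung, on linear axes from 0. Etv5KO and control libraries overlap in each panel, while Notch3, Dll1 and Hey1 are near 0 in AT2 cells of both genotypes and above 28 CPM in every lung.

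All 10 genes passed the filter on low counts in each comparison. In AT2 cells, the contrast known when the genes were chosen, 2 of the 10 were past the threshold, Hes2 lower and Jag1 higher, where 9.87% of 14939 genes tested were past it, 4.84% lower and 5.03% higher. The same 2 were the ones whose groups did not overlap, as was the case for 12.4% of all genes tested, and nothing is read from either count. The median log2 fold change of the 10 was −0.11 in AT2 cells and −0.17 in lung, against −0.01 over all genes tested in each. The count of genes with a positive sign was 3 of 10 in AT2 cells and 2 of 10 in lung. The difference between the AT2 and lung effects holds the same AT2 values and is likewise only described: none of the 10 was past the threshold in edgeR, where 1.59% of 17698 genes tested did, 0.791% with a positive and 0.802% with a negative difference; 2 of them, Notch1 and Jag1, were under 0.05 before adjustment.

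**Figure D3:**
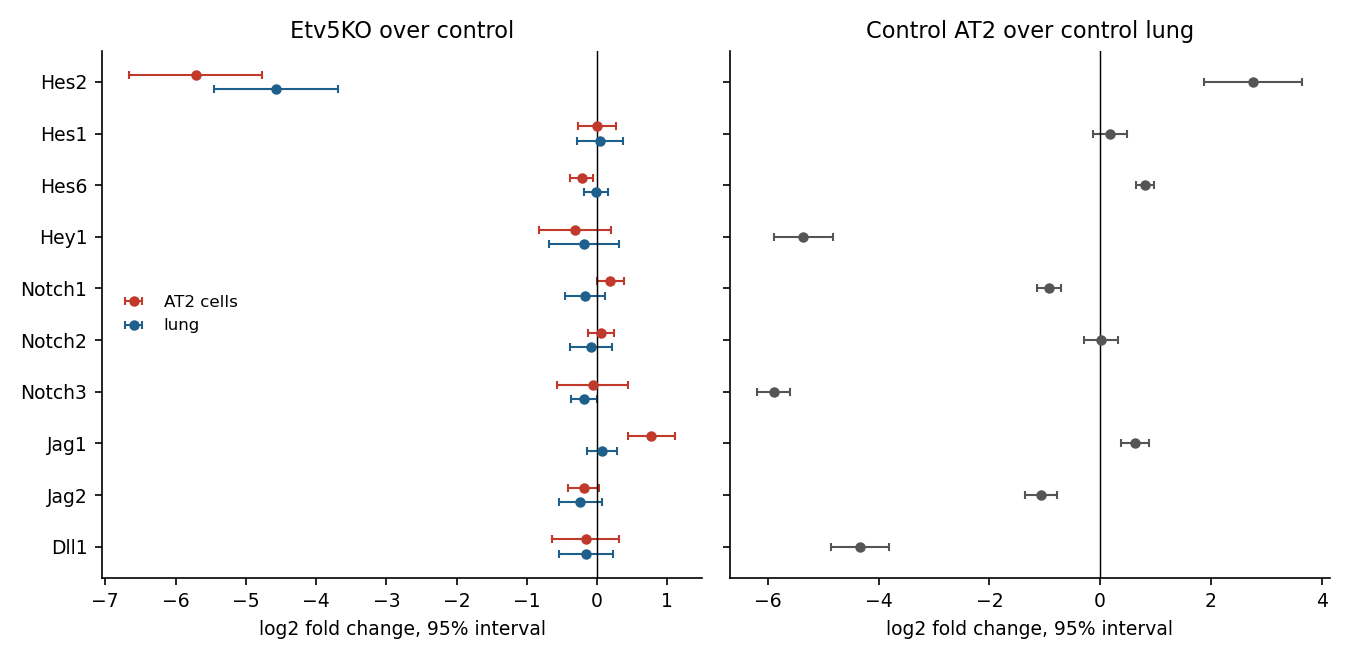
Log2 fold changes of the 10 genes with 95% intervals, Etv5KO over control in AT2 cells and in lung (left) and control AT2 cells over control lung (right). On the left Hes2 stands apart at −5.71 and −4.57 and the interval of Jag1 in AT2 cells lies above 0; on the right Notch3, Hey1 and Dll1 lie between −5.90 and −4.34.

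Between control AT2 cells and control lung, 3 of the 10 genes were higher in AT2 cells, 5 were lower and 2 did not pass, where 74.5% of 17118 genes tested passed, with 35.6% higher and 38.9% lower. The 8 that passed were also those without overlap between the groups, as were 66.5% of all genes tested. Hes2, Hes6 and Jag1 were the 3 that were higher, Hes2 in libraries that had entered its choice. Hes6 stood at 40.8 ± 1.97 CPM in control AT2 cells and 23.2 ± 1.77 CPM in control lung, a log2 fold change of 0.81 (SE 0.07) with an edgeR adjusted p of 9.13e-07. Jag1 was higher by a log2 fold change of 0.63 (SE 0.12, edgeR adjusted p 0.000367), a call lost with scaling by library size only (0.24, adjusted p 0.128), which moved the median of all genes to −0.42. The genes that were lower in AT2 cells split into a mild and a strong set. Notch1 and Jag2 had log2 fold changes of −0.92 (SE 0.10, edgeR adjusted p 4.16e-06) and −1.07 (SE 0.13, edgeR adjusted p 1.27e-05). Dll1, Hey1 and Notch3 had log2 fold changes of −4.34 (SE 0.24), −5.36 (SE 0.24) and −5.90 (SE 0.14), with edgeR adjusted p-values of 9.81e-09, 1.81e-09 and 1.82e-11. Hes1 at 0.18 (95% interval −0.13 to 0.49) and Notch2 at 0.01 (−0.29 to 0.32) did not pass. With scaling by library size only, the sign of both turned, to −0.23 for Hes1 and −0.40 for Notch2, which then passed (adjusted p 0.0201).

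The markers of vessel and stromal cells were lower in control AT2 cells, as the strong set was, and so were leukocyte and airway markers. Median log2 fold changes against control lung were −5.56 for endothelial, −6.08 for mesenchymal and mural, −4.77 for leukocyte and −4.26 for airway markers. Those of the tested neuroendocrine and AT1 markers were −3.40 and −3.30. The summed CPM of 8 endothelial markers ran from 88.7 to 154 in Etv5KO AT2 cells and from 86.4 to 129.7 in control AT2 cells, and from 3691 to 5320.3 in Etv5KO lung and from 4469 to 5502 in control lung. The summed CPM of 8 mesenchymal and mural markers ran from 47.5 to 93.2 in Etv5KO AT2 cells and from 38.4 to 68.6 in control AT2 cells, and from 2072 to 3937 in Etv5KO lung and from 2099 to 4169 in control lung. Within AT2 cells, 0 of 8 endothelial and 0 of 7 tested mesenchymal and mural markers passed between genotypes in edgeR. Of all genes tested there, 9.87% passed. Before adjustment, 1 and 2 of these markers were under 0.05. All 8 and all 7 had a positive log2 fold change in Etv5KO AT2 cells. Their medians were 0.28 and 0.43, against −0.01 over all genes tested. The part of any of these cell types in the levels of Notch3, Hey1 and Dll1 was not tested.

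Per gene length, in the authors' normalized RPKM, Hes2 was the gene of the 10 that moved furthest in rank between Etv5KO and control AT2 cells. In Etv5KO AT2 cells the order of mean levels was Hes1 (35.4), Jag1 (25.4), Hes6 (16.0), Notch2 (15.3), Notch1 (12.8), Jag2 (3.70), Hey1 (0.605), Dll1 (0.458), Notch3 (0.375) and Hes2 (0.294). In control AT2 cells it was Hes1 (35.2), Hes6 (18.4), Hes2 (14.9), Jag1 (14.7), Notch2 (14.6), Notch1 (11.1), Jag2 (4.18), Hey1 (0.755), Dll1 (0.510) and Notch3 (0.391). Hes2 was thus last in Etv5KO AT2 cells and the third in control AT2 cells. Its control AT2 libraries ran from 5.49 to 21.4 and overlapped those of Hes6, Jag1, Notch2 and Notch1. Neighbours whose libraries did not overlap were Jag1 above Hes6, Notch1 above Jag2 and Jag2 above Hey1 in Etv5KO AT2 cells, and Hes1 above Hes6, Notch2 above Notch1, Notch1 above Jag2 and Jag2 above Hey1 in control AT2 cells.

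In lung Hes2 was last in both genotypes, and the order began with Hes1 and Hey1. Etv5KO lung averaged 33.2 for Hes1, 28.4 for Hey1, 21.2 for Notch3, 19.2 for Notch1, 14.1 for Notch2, 10.7 for Hes6, 10.3 for Jag1, 9.53 for Dll1, 7.70 for Jag2 and 0.0952 for Hes2 in normalized RPKM. Control lung averaged 32.0 for Hes1, 32.0 for Hey1, 24.0 for Notch3, 21.6 for Notch1, 14.9 for Notch2, 10.8 for Hes6, 10.6 for Dll1, 9.77 for Jag1, 9.06 for Jag2 and 2.27 for Hes2. Notch2 above Hes6 and Jag2 above Hes2 were the neighbours without overlap in Etv5KO lung, and Jag2 above Hes2 was the one in control lung.

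**Figure D4:**
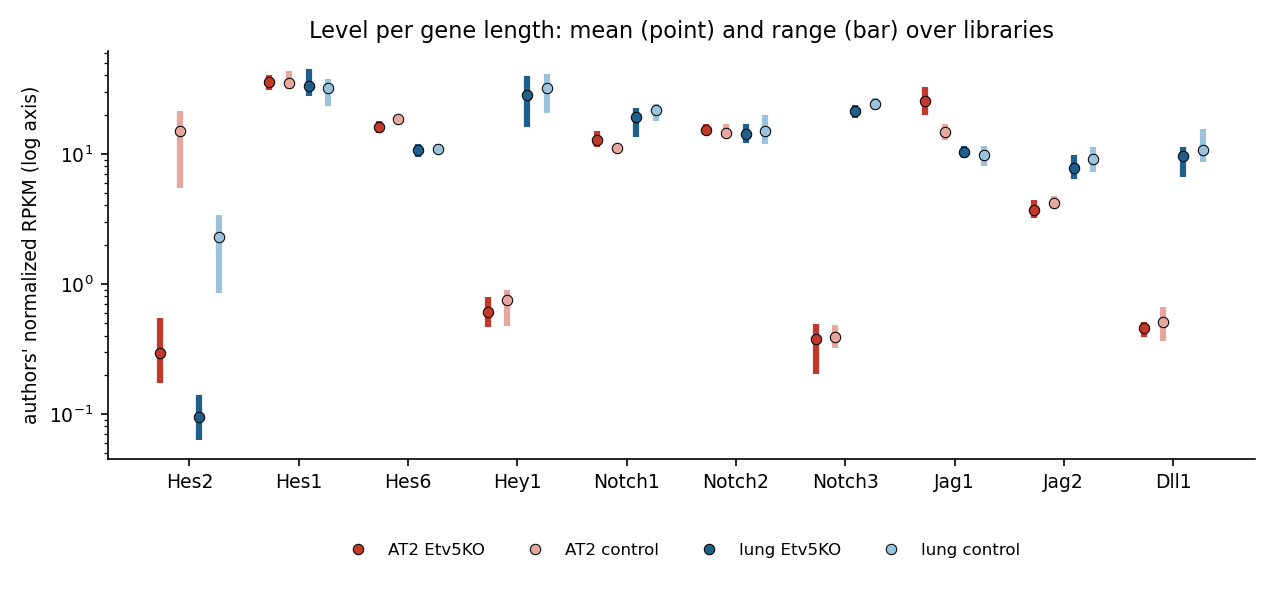
The authors' normalized RPKM (log axis) of the 10 genes, with the mean (point) and range over libraries (bar) of Etv5KO and control AT2 cells and Etv5KO and control lung. Hes2 averages 0.294 in Etv5KO and 14.9 in control AT2 cells, while Hes1 stays between 32.0 and 35.4 in the 4 groups.

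Beyond these 10 genes, 49 further genes of the pathway were counted. In Etv5KO AT2 cells, 45 of them were tested, of which 3 were higher, 1 was lower and 41 did not pass, near the 9.87% of all genes; their median log2 fold change was 0.05. Adam10, the metalloprotease that makes the ligand-induced cut in Notch, stood at 153 ± 8.64 CPM in Etv5KO AT2 cells and 116 ± 7.79 CPM in control AT2 cells, a log2 fold change of 0.40 (SE 0.07, edgeR adjusted p 0.00327). Tle3, a Groucho-family corepressor recruited by HES proteins, stood at 85.3 ± 16.6 CPM in Etv5KO AT2 cells and 50.8 ± 11.4 CPM in control AT2 cells, a log2 fold change of 0.75 (SE 0.17, edgeR adjusted p 0.0156). The lower gene was Dtx2, of the Deltex ubiquitin ligases, with 26.7 ± 1.62 CPM in Etv5KO AT2 cells and 35.0 ± 1.92 CPM in control AT2 cells, a log2 fold change of −0.39 (SE 0.07, edgeR adjusted p 0.00455). Psen2, a catalytic subunit of gamma-secretase, was higher by 0.29 (SE 0.08, edgeR adjusted p 0.0453). That call was lost with no filter on low counts (adjusted p 0.0751) and without any 1 of 8 of the 9 AT2 libraries. Rbpj, which encodes the DNA-binding partner of cleaved Notch, stood at 15.6 ± 1.10 CPM in Etv5KO AT2 cells and 15.02 ± 0.641 CPM in control AT2 cells and did not pass.

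In lung, 45 of the 49 genes were tested and 0 passed between genotypes in edgeR, with 1 under 0.05 before adjustment; 0 passed by DESeq2 or limma-voom. Between control AT2 cells and control lung, 46 were tested, of which 9 were higher and 23 lower in AT2 cells, where 35.6% of all genes tested were higher and 38.9% lower. Their median log2 fold change was −0.22, against −0.01 over all genes tested. The smallest p-values were those of Heyl, Notch4, Mfng and Lfng. Heyl, a HEY-family gene of vessel walls, stood at 0.671 ± 0.107 CPM in control AT2 cells and 77.2 ± 10.1 CPM in control lung, a log2 fold change of −6.83 (SE 0.16, edgeR adjusted p 1.68e-11). Notch4 and Dll4, a receptor and a ligand of endothelial cells, had log2 fold changes of −5.15 and −5.10, with edgeR adjusted p-values of 1.68e-11 and 8.68e-11. The Fringe genes Mfng and Lfng, whose enzymes add sugars to Notch and alter its choice of ligand, had log2 fold changes of −5.60 and −5.31. Rbpj was lower by −0.64 (edgeR adjusted p 3.58e-05). Hes5, another classic target, had at most 2 counts in any AT2 library and at most 9 in any lung.

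The genes with a pattern most like that of Hes2 over the 19 libraries were Nupr1, Trpv6, Acoxl, Marchf3 and Bex2, with Pearson r on log2 CPM of 0.88, 0.87, 0.87, 0.85 and 0.85 among the 10884 genes that averaged 5 CPM or more over AT2 libraries. These coefficients describe likeness over 4 groups whose libraries lie apart, and the shared genotype and tissue differences enter them. On deviations of each library from its group mean, r with Hes2 was 0.67 for Nupr1, 0.56 for Acoxl and 0.47 for Bex2. It was 0.13 for Marchf3 and 0.005 for Trpv6. Acoxl, related to the acyl-CoA oxidases, averaged 135 ± 40.8 CPM in Etv5KO AT2 cells and 849.9 ± 112 CPM in control AT2 cells, and 17.2 ± 5.56 CPM in Etv5KO lung and 105 ± 14.7 CPM in control lung. Its log2 fold changes were −2.65 in AT2 cells and −2.62 in lung. Those of the stress-response gene Nupr1 were −2.25 in AT2 cells and −0.49 in lung, those of the calcium channel gene Trpv6 −2.81 and −2.12, those of the ubiquitin ligase gene Marchf3 −2.03 and −0.42, and those of Bex2 −2.62 and −2.71. Hes2 had a larger fold change than each of the 5 in both tissues.

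The genes next to Hes2 on chromosome 4 did not share its direction as a group. In the order Tnfrsf25, Espn, Hes2, Acot7, Gpr153, the 2 protein-coding neighbours before Hes2 did not pass in either tissue. Acot7, the acyl-CoA thioesterase gene next after it, held 276, 223, 221, 294 and 251 CPM in Etv5KO AT2 libraries, against 1103, 744, 1141 and 909 CPM in control AT2 libraries. The groups did not overlap, and the control AT2 library that was lowest in Hes2 was also the lowest in Acot7. Acot7 had a log2 fold change of −1.94 (SE 0.13, edgeR adjusted p 9.21e-06) in AT2 cells and −1.23 (SE 0.10, edgeR adjusted p 0.000221) in lung, where it averaged 48.1 ± 5.93 CPM in Etv5KO and 113 ± 15.2 CPM in control libraries. Gpr153, an orphan receptor gene one further on, moved the other way. It held 64.2, 57.3, 56.3, 81.4 and 60.8 CPM in Etv5KO AT2 libraries, against 22.6, 13.4, 16.5 and 14.8 CPM in control AT2 libraries, a log2 fold change of 1.93 (SE 0.16, edgeR adjusted p 2.41e-05). In lung Gpr153 averaged 52.2 ± 8.06 CPM in Etv5KO and 37.4 ± 8.64 CPM in control libraries and did not pass (log2 0.48, edgeR adjusted p 0.433).

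**Figure D5:**
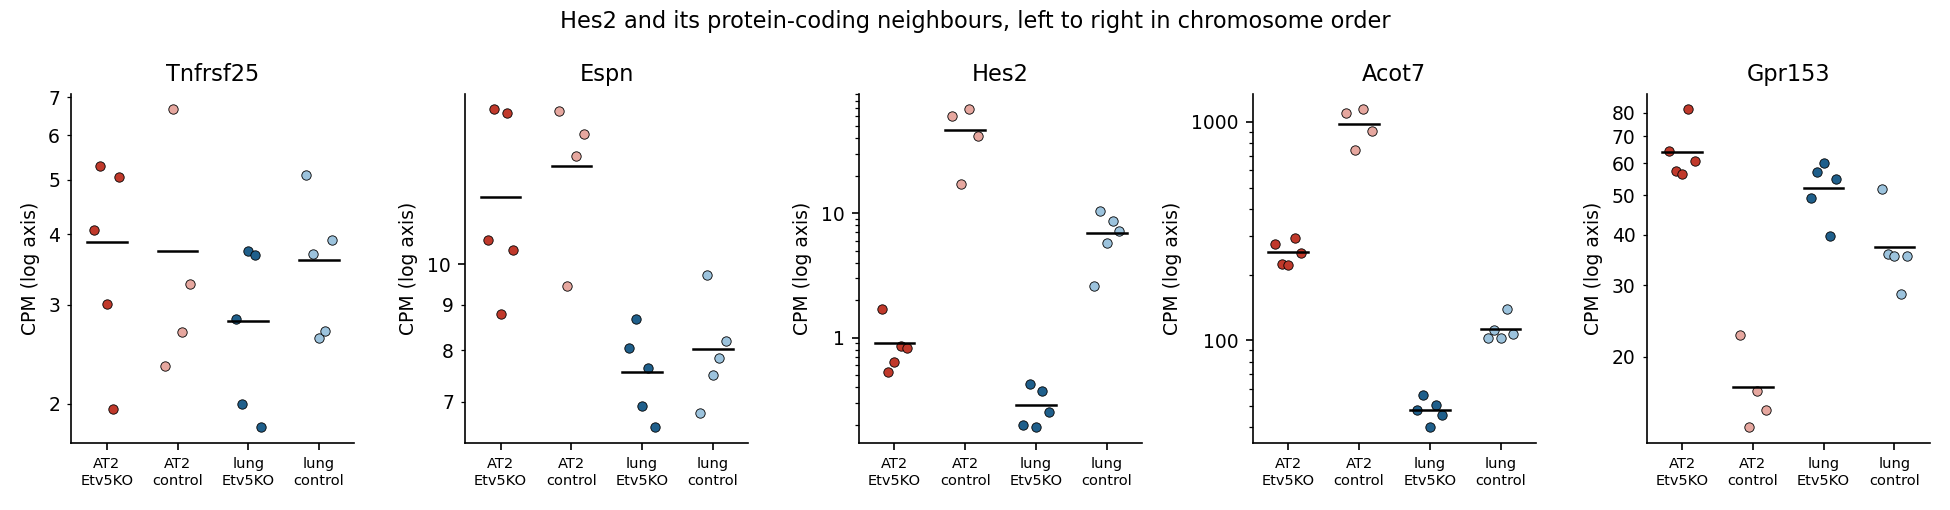
CPM per library (points, log axes that differ between panels) and group mean (line) of Hes2 and its 2 nearest protein-coding neighbours on each side, in chromosome order. Hes2 and Acot7 are lower and Gpr153 higher in Etv5KO than in control AT2 cells without overlap, while Tnfrsf25 and Espn overlap in both tissues.

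The promoters of Acot7, the neighbour that was lower in both tissues, and of Acoxl, the gene of the 5 most alike with the closest fold changes in AT2 cells and lung, are shown from RefSeq on GRCm38.p6, both on the plus strand, at chr4:152185358-152185657 and chr2:127854378-127854677. Capitals mark CCGGAA.
Acot7: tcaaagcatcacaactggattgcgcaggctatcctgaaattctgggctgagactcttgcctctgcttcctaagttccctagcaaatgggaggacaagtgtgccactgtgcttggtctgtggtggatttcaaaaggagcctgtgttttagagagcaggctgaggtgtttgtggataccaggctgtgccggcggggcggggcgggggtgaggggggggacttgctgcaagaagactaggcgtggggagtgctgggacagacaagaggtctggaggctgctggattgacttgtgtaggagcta
Acoxl: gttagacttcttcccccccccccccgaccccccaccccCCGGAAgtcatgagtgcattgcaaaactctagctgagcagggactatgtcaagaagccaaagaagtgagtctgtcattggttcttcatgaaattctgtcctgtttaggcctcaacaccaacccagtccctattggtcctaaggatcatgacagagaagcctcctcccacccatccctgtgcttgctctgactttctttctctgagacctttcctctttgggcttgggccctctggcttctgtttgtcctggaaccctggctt
Acoxl held CCGGAA once, starting 212 bases before its start site, and 14.9% of all windows held it. Acot7 held neither CCGGAA nor TGGGAA on either strand. Of the other genes most alike, Nupr1, Trpv6 and Bex2 did not hold CCGGAA, and Marchf3 was not searched. The windows of Tnfrsf25, Espn, Gpr153 and Etv5 did not hold it either.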

How the data were processed

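Polyadenylated RNA was sequenced in 19 libraries, grouped by their titles. Per the file headers, the authors deposited for each gene the count of reads aligned uniquely to its gene model, and a normalized RPKM, that is an RPKM adjusted by the sample's size factor. The submitters' processing notes name the aligner GSNAP, without a version, and the build mm9. Not given in the sources used here are the annotation, the counting tool and the use of strand. Reads with more than 1 position were left out, which lowers genes with near-identical copies. The normalized RPKM followed the counts to within 6.47e-15 on the log scale once library factors and gene lengths were fitted, and was used for levels between genes and to recover the authors' size factors. Counts were tested with edgeR 4.0.16 in R 4.3.3: filterByExpr (minimum count 10, minimum total 15), TMM, the two-sided quasi-likelihood F test, Benjamini-Hochberg adjustment over all genes tested and a threshold of 0.05. Each tissue was fitted alone, control AT2 cells against control lung in their own fit, and the difference of effects as an interaction over all 4 groups. Standard errors were computed from F, and intervals are 95% intervals. A gene is called higher or lower in a test only past the threshold. CPM values were scaled by TMM over all 19 libraries.

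The 10 genes and all lists were chosen with earlier results of these data known. Named were the 10 genes, Etv5, up to 4 pathway genes with the smallest p per comparison with Notch4, Dll4 and Rbpj, the 5 genes with the highest Pearson r with Hes2 on log2 CPM (prior count 2), and the 2 nearest protein-coding RefSeq neighbours on each side of Hes2; Hes5 was added after its values were seen. Names, neighbours and promoters came from RefSeq on GRCm38.p6, which named 31049 of 36528 IDs; since that is not mm9, its coordinates are used only for the promoter sequences. In that annotation, genes on either strand overlap Hey1, Notch1, Notch2, Notch3 and Jag2, whose reads cannot be told apart from theirs if strand was not used. The counts of 43 IDs could not be told from those of another ID, 0 of them in the lists. Replicates differed by more than counting noise (chi-square per degree of freedom 7.81 to 61.7), so none was counted as a duplicate. At this depth 3 counts equal 0.0317 CPM of the pooled Etv5KO AT2 libraries. Alternatives were DESeq2 1.42.0 size factors, library size only, the authors' size factors, no filter, DESeq2's Wald test, limma-voom (limma 3.58.1) and each library left out in turn. The fits within AT2 cells, within lung and between control tissues were run on simulated data with known changes. The fit of the difference of effects was not.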

Additional observations from a re-analysis of the deposited data

Results flagged for a closer look

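In 30 genes looked at in 4 groups each, 6 of the 120 groups of libraries held a library past the 95% critical value of Dixon's gap test, which chance alone flags in about 1 in 20 groups; that rate was not measured here. Hes2 was 1.71 CPM in Etv5KO AT2 library 1, the others 0.528 to 0.864 CPM. Etv5 was 94.4 CPM in Etv5KO lung 3, the others 112 to 120 CPM. In control libraries, Rbpj was 16 CPM in AT2 library 3 (the others 14.7 to 14.8), Acot7 139 CPM in lung 4 (102 to 112), Adam10 188 CPM in lung 1 (163 to 169) and Marchf3 4.11 CPM in lung 2 (5.37 to 5.61).

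Of the 30 named genes, 4 had an Etv5KO effect in AT2 cells that differed from that in lung by edgeR's interaction test. Over all 17698 genes tested, 1.59% did. None of the 4 was among the 10 Notch genes. The log2 difference, AT2 cells minus lung, was 1.45 for Gpr153 (adjusted p 0.00155), −0.72 for Acot7 (adjusted p 0.0426), −1.77 for Nupr1 and −1.61 for Marchf3. The last 2 were chosen for their likeness to Hes2 over the same libraries, so no p is given for them. The call for Acot7 was lost without any 1 of 15 of the 19 libraries, with adjusted p-values up to 0.148. In edgeR it was also lost with DESeq2 size factors (adjusted p 0.0506), with the authors' size factors (0.0523) and with no filter on low counts (0.0517).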

How the results depend on the processing

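No paired analysis was possible because the replicate numbers come from accession order and tie no library to another. In lung, the log2 fold change of Hes2 ran from −4.78 to −4.37 over the alternatives. That range is a description, since all of them use libraries whose earlier results were known when Hes2 was chosen. In AT2 cells, the contrast known when it was chosen, its values ran from −6.02 to −5.48. The count of the 10 genes past the threshold for the difference of effects was 0, and 1 (Jag1) with DESeq2's Wald test and with no filter; leaving out 1 library gave 0 to 1. With 1 library left out, the count was 2 to 3 in AT2 cells, 1 in lung and 8 between control tissues, and that of the pathway list 3 to 4 in AT2 cells, 0 in lung and 29 to 34 between tissues. Over all genes, 71 passed in lung with edgeR and 192 with DESeq2's Wald test, and 282 and 455 for the difference of effects.

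Among the alternatives run, signs turned only for values that had not passed. For the difference of effects, Dll1 (−0.01) was 0.0089 with the authors' size factors, 0.0066 with DESeq2 size factors, 0.0058 with the Wald test, 0.042 with library size only, 0.029 with limma-voom and 0.017 with no filter, and Hes1 was 0.0041 with library size only. Hes1 in AT2 cells (−0.00) was 0.012 with the authors' size factors, 0.061 with library size only and 0.0042 with limma-voom. Between control AT2 cells and lung, Hes1 (0.18) was −0.23 with library size only, and Notch2 (0.01) was −0.030 with the authors' size factors, −0.013 with DESeq2 size factors, −0.018 with the Wald test, −0.40 with library size only and −0.00052 with no filter. With 1 library left out, the difference of effects ran from −0.18 to 0.18 for Dll1, −0.12 to 0.080 for Hes1, −0.28 to 0.015 for Hey1 and −0.052 to 0.14 for Jag2. In lung the ranges were −0.23 to 0.019 for Dll1, −0.089 to 0.12 for Hes1, −0.063 to 0.033 for Hes6, −0.16 to 0.053 for Notch2 and −0.056 to 0.023 for Rbpj. In AT2 cells they were −0.061 to 0.12 for Hes1, −0.19 to 0.084 for Notch3 and −0.018 to 0.19 for Notch4, and between tissues −0.063 to 0.13 for Notch2. The cause was not tested. Depth limits Hes2 in Etv5KO lung, where a library held 5 to 10 counts.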
